A study of Mus musculus with 21 samples.

Results

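The genes described are 39 interferon-response and MHC class I genes of the mouse, taken by symbol from a count table of 33861 genes. They comprise 7 transcription factors (Irf1, Irf2, Irf3, Irf7, Irf9, Stat2 and Nlrc5), 3 receptor chains (Ifnar1, Ifnar2 and Ifngr1) and 6 genes of nucleic acid sensing (Ifih1, Ddx58, Mavs, Tlr3, Zbp1 and Trim25). A further 14 encode effectors (Ifit1, Ifit2, Ifit3, Ifitm1, Ifitm2, Ifitm3, Isg15, Usp18, Bst2, Phf11d, Gbp2, Gbp2b, Gbp3 and Gbp7), and 9 act in antigen presentation (B2m, H2-K1, H2-D1, Tap1, Tap2, Tapbp, Psmb8, Psmb9 and Psmb10). Of the 39, 38 were detected, meaning more than 3 counts in at least 1 of 21 samples. Ifit3 was not. The 13 members of the IFIT, IFITM, PHF11, GBP and H2 class I multigene families are reported as uncertain, because reads of near-identical copies may have been divided between them.

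The study measured the transcriptomes of mouse pluripotent cells in culture and of epiblasts, the tissue of the early embryo from which the body forms. FS denotes formative stem cells grown in medium A3XR: 2 lines were sampled 3 times each, line 1 when passaged 10, 11 and 18 times and line 2 when passaged 12, 13 and 16 times. AF and AFX denote epiblast stem cells (EpiSCs), cultures that resemble the postimplantation epiblast, grown in medium AF or AFX and taken in each medium at passage 14, 15 and 16. Their titles carry the name E14, that of an established embryonic stem cell line. The epiblasts were 3 each at E5.0, E5.5 and E6.0, collected one by one, and another label gives the oldest stage as E6.5. In the published naming of these media A stands for activin A, F for FGF2, X for a tankyrase inhibitor and R for a retinoic acid receptor antagonist, while the labels give the names only. No added interferon, infection or genetic change is named for any group, and strain and sex are not given. Each cultured sample held 1000 cells. Passages of the same line are the replicates, and the 2 FS lines form 1 group except where they are compared. P-values between cultures thus measure the spread between passages and, for FS, also between its 2 lines. They do not measure the spread of further lines.

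Interferons are secreted signals of antiviral defence. Type I interferon binds a receptor of IFNAR1 and IFNAR2 and acts through a complex that includes STAT2 and IRF9 on a DNA element called ISRE, and interferon gamma binds a receptor that includes IFNGR1 and acts on a different element, GAS. Many of the genes they induce block steps of viral replication, and others build MHC class I, a heavy chain such as H2-K1 or H2-D1 paired with beta-2 microglobulin that displays peptides cut by the proteasome to T cells. Pluripotent stem cells are known for a weak response to interferon and for low class I display.

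The ISRE core was sought as GAAANNGAAA on both strands in RefSeq promoter windows (GRCm38.p6) that run from 250 bases before to 50 bases after each gene's start. Of the 39 members, 35 had a window, and 15 of those 35 (42.9%) held the motif, against 3.99% of all 27025 genes with a window. Usp18, Nlrc5, Tap2 and Zbp1 had no window and were not searched. The GAS core TTCNNNGAA was held by 9 of 35 members (25.7%) and 9.55% of all genes. Overlapping matches were allowed. The stretches below come only from windows that held the ISRE core. Apart from B2m, a class I gene shown for the same motif, they belong to genes that differed between media or between lines, as described later. Of the 11 members lower in AFX than in AF, 5 held the core and 6 (Irf1, Trim25, H2-D1, Tapbp, Psmb8 and Psmb10) did not, nor did Irf9 or H2-K1, which differed between the lines. They read 5′ to 3′ on the gene's strand, and capitals mark ISRE core matches, which read TTTCNNTTTC where they lie on the opposite strand. A match describes letters only.
Gbp2, chr3:142620589-142620628, plus strand: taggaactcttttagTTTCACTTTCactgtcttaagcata
Gbp2b, chr3:142594695-142594734, plus strand: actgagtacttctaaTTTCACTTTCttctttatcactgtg
Gbp3, chr3:142559984-142560029, plus strand: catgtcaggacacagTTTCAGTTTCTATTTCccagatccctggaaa
Gbp7, chr3:142530268-142530307, plus strand: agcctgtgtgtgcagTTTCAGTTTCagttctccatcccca
Isg15, chr4:156200860-156200911, minus strand: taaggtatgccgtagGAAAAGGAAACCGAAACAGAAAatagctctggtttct
Bst2, chr8:71537572-71537617, minus strand: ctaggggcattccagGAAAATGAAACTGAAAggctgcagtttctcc
Ifit1, chr19:34640770-34640828, plus strand: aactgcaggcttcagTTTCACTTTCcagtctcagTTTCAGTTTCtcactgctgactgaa
B2m, chr2:122147533-122147572, plus strand: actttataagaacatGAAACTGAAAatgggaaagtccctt

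Levels are CPM, the standard rescaling of read counts to library size, here with TMM, which corrects library size for composition. The totals ran from 5827093 to 15916800 counts per sample. The floor of 3 counts corresponded to 0.171 to 0.589 CPM. Summed epiblast markers (Pou5f1, Sox2, Otx2, Dnmt3b, Utf1, Fgf5 and Pou3f1) reached 1178 to 7147 CPM over all samples, so the labelled cell type carried its markers throughout. Markers of other cells were not even between groups. The 9 fibroblast markers summed to 232 to 277 CPM in AF, 31.7 to 56.3 in AFX and 19.5 to 51.2 in FS, and the 10 visceral endoderm markers to 212 to 702 CPM at E5.0, 18.7 to 42.8 at E5.5 and 6.81 to 7.70 at E6.0. In bulk RNA, a change in the number of cells of a type and a change in RNA per cell cannot be told apart.

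The members differed widely in level. Compared per kb of exon, Bst2, a membrane protein that tethers budding virions, had the highest mean of the 39 in FS (35.9 CPM per kb), AF (25.7), E5.0 (48.9) and E5.5 (35.0). The FS mean was carried by line 2 (61.9 CPM per kb), while in line 1 Bst2 (10.005) stood below Ifitm2 (24.1), B2m (11.8), H2-K1 (11.5) and H2-D1 (10.6). Ifitm2, whose product restricts viral entry, was highest in AFX (27.4 CPM per kb) and at E6.0 (21.1). Of its 655 exon bases 268 overlap Gm45717 on the same strand and 48.5% of its 50-base stretches recur in other genes, so its level and rank depend on how reads were assigned. At the other end, Irf7, which amplifies type I interferon transcription, did not exceed 0.723 CPM in any sample. Nlrc5, the coactivator of class I genes, ran from 0 to 3.37 CPM over all samples and did not pass in any comparison in which it was tested. Of the interferons on the fixed pathway list, Ifne and Ifnk were not detected, and Ifnb1, Ifng, Ifnl2 and Ifnl3 were not analysed here.

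**Figure D1:**
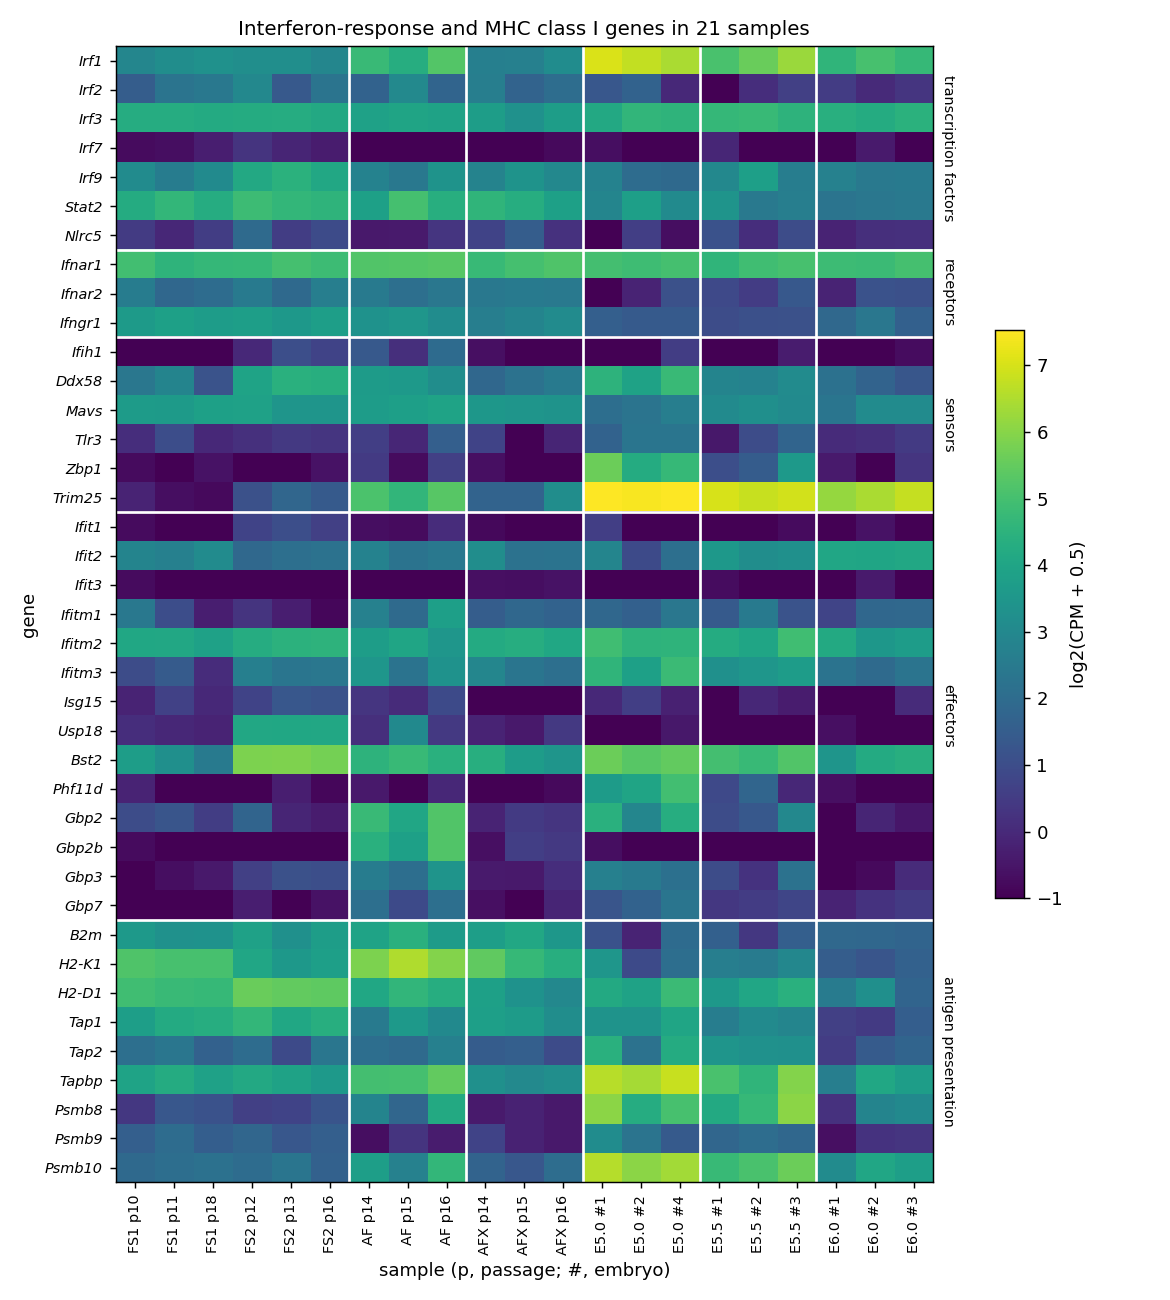
Level of each of the 39 members (rows, grouped by role) in each of the 21 samples (columns, white lines between groups), as log2(CPM + 0.5) with the colour scale at the right. Trim25 and Psmb10 are brightest at E5.0, Gbp2b is bright in AF only, and Usp18 is bright in FS line 2 and in AF passage 15.

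Every member that passed between the EpiSC media was lower in AFX. Of 35 members tested between AFX and AF, 11 were lower in AFX and 0 were higher, with edgeR's quasi-likelihood test at an adjusted p under 0.05. Among all 16052 genes tested 8.73% passed, 4.30% being higher and 4.42% lower. The count of 11 fell to 7 without AF passage 16 or AFX passage 15 and was 6 with a mean of at least 5 CPM. The median log2 change was -1.10 over the members and 0.01 over all genes. The 11 were Irf1, Trim25, Isg15, H2-D1, Tapbp, Psmb8, Psmb10 and the 4 GBPs. Of 69 genes tested from the wider pathway list, 11 were lower in AFX and 0 higher, among them Gbp4 (-3.06 ± 0.73 on the log2 scale, SE, adjusted p 0.0167) and Ifi35 (-3.03 ± 0.61, adjusted p 0.00722). The fibroblast markers moved the same way, 7 of 8 tested being lower in AFX and 1 (Thy1) higher. Of 4 visceral endoderm markers tested, 3 were lower in AFX, and of 5 extraembryonic ectoderm markers, 2. The part of such cells in the result was not tested.

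Irf1, a transcription factor induced by interferon gamma, was at 26.9, 19.2 and 37.8 CPM in AF and at 5.97, 6.12 and 8.31 CPM in AFX. The groups did not overlap, and Irf1 was lower in AFX by a log2 change of -2.04 ± 0.25 (SE, adjusted p 0.000335). In FS it ran from 6.99 to 9.53 CPM with a median of 8.69, close to AFX, and it was lower than in AF (-1.77 ± 0.20, adjusted p 3.06e-05). Trim25, the ubiquitin ligase that acts on the RNA sensor RIG-I, was at 34.0, 24.2 and 39.1 CPM in AF and at 2.75, 2.75 and 8.56 CPM in AFX. All AF samples lay above all AFX samples. The AFX change of -2.78 ± 0.78 had an adjusted p of 0.0485. It was lost in 5 of 6 fits that left out 1 sample, all but that without AFX passage 16, at changes of -2.50 to -2.96, and also with DESeq2 (adjusted p 0.065) and without a filter (adjusted p 0.133). Without AFX passage 16 it was -3.56. In FS, Trim25 ran from 0.0814 to 3.06 CPM with a median of 1.04, below every AF sample (-4.66 ± 0.67, adjusted p 0.00059). That change was -7.30 for FS line 1 alone and -3.86 for line 2 alone.

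The guanylate-binding proteins, interferon-induced GTPases that act on membranes of intracellular pathogens, were all lower in AFX and in FS than in AF. Their 4 genes lie side by side on chromosome 3. Gbp2b was at 21, 14.1 and 36.4 CPM in AF. In AFX it was at 0.134, 1.00 and 0.831 CPM, a log2 change of -5.27 ± 0.57 (adjusted p 0.000145). In FS 5 of 6 samples had no count and line 1 passage 10 had 0.0992 CPM, so the pooled rate, the counts of a group divided by its pooled library size, was 1678-fold lower than in AF (95% exact interval 300.2 to 66367, counting error only). It was 735-fold lower for FS line 1 alone (132 to 29087). Without line 1 passage 10 it was at least 89.7-fold lower, and for line 2 alone at least 98.1-fold. Gbp2b was thus present in every AF sample and at or near the floor in most other samples, epiblasts included, where the highest value was 0.124 CPM.

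Gbp2 was at 27.0, 16.1 and 36.3 CPM in AF and at 0.402, 0.875 and 0.748 CPM in AFX. The log2 change was -5.33 ± 0.69 (adjusted p 0.000669), and no AFX sample came near the AF range. In FS Gbp2 ran from 0.284 to 2.89 CPM with a median of 1.23 (-4.34 ± 0.49 against AF, adjusted p 5.42e-05). Unlike Gbp2b, Gbp2 was also present at E5.0. Gbp3 was at 5.43, 3.69 and 10.2 CPM in AF against 0.268, 0.250 and 0.582 in AFX (-4.08 ± 0.95, adjusted p 0.0157). Gbp7 was at 3.82, 1.41 and 3.80 CPM in AF against 0.134, 0 and 0.416 in AFX (-3.86 ± 0.95, adjusted p 0.02). Both were separated between the media, at low counts. Among cultured samples Gbp2b and Gbp7 passed the low-count filter only through AF. Their place among the members lower than in AF was thus partly fixed by that filter. The Gbp3 call was lost without AF passage 16, AFX passage 14 or AFX passage 15 (changes of -3.59 to -3.92), and the Gbp7 call without AF passage 14 or 16 or AFX passage 14 or 15 (-3.44 to -3.67). Without AFX passage 16, 2 Gbp7 counts were left in AFX, a pooled rate 33.3-fold lower (95% exact interval 8.95 to 279).

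Isg15 encodes a ubiquitin-like protein that is conjugated to other proteins. It was at 0.740, 0.527 and 1.39 CPM in AF and had no count in any AFX sample, at least 3.22-fold lower (adjusted p 0.0106) against a floor of 3 counts per sample. In FS it ran from 0.397 to 2.0 CPM with a median of 1.09, at least 4.14-fold higher than in AFX (adjusted p 0.00391). Ifih1, the RNA sensor MDA5, was at 2.1, 0.615 and 3.43 CPM in AF and at 0.134, 0 and 0 CPM in AFX, and it did not pass. Usp18, which removes ISG15 and dampens type I receptor signalling, was at 7.82 CPM in AF passage 15 against 0.617 and 0.835 in the other AF passages. It was at 0.250 to 0.831 CPM in AFX and did not pass between the media either.

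**Figure D2:**
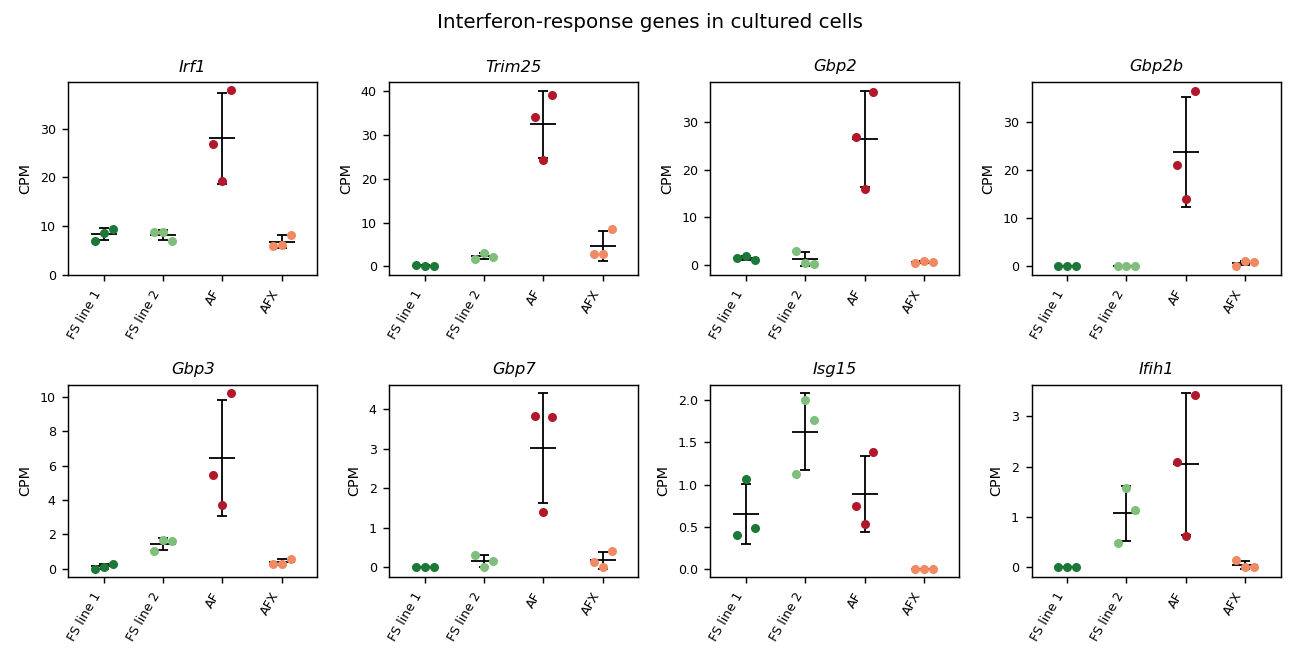
CPM of 8 interferon-response members in cultured cells, by group. Points are samples (3 passages each), horizontal lines and bars are mean ± SD. The GBPs, Irf1 and Trim25 are highest in all 3 AF samples, with AFX and both FS lines near the axis for the GBPs.

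Antigen presentation genes took part unevenly. Psmb8, a catalytic subunit that replaces a constitutive one to make the immunoproteasome, was at 6.78, 2.99 and 17.6 CPM in AF and at 0.268, 0.375 and 0.249 CPM in AFX. Every AF sample was above every AFX sample (-4.93 ± 0.66, adjusted p 0.000627), and the change was -4.02 without AF passage 16. Psmb10, another such subunit, was at 13.3, 6.15 and 24.4 CPM in AF and at 2.75, 2.0 and 3.66 CPM in AFX (-2.37 ± 0.42, adjusted p 0.00351). The other, Psmb9, was at 0.123, 0.703 and 0.278 CPM in AF and at 1.14, 0.375 and 0.249 CPM in AFX, and it did not pass between AFX and AF. The constitutive subunits Psmb5, Psmb6 and Psmb7 did not pass in any of the 3 comparisons among cultured cells, and their AF means were 24.1, 98.3 and 69.8 CPM against 23.7, 96.8 and 63.6 CPM in AFX.

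Tapbp, the tapasin that bridges class I to the peptide transporter, was at 31.3, 31.6 and 44.5 CPM in AF and at 9.19, 7.62 and 8.73 CPM in AFX. It was lower in AFX by -2.07 ± 0.20 (adjusted p 0.000108), with no overlap. H2-K1, a classical class I heavy chain, was at 57.6, 90.2 and 61.7 CPM in AF and at 43.5, 25.9 and 20.0 CPM in AFX. The ranges did not overlap, but H2-K1 did not pass. H2-D1, the other heavy chain, was at 16.3, 23.7 and 19.5 CPM in AF and at 14, 9.62 and 7.40 CPM in AFX (-0.94 ± 0.28, adjusted p 0.0469). Its call was lost in 5 of 6 fits that left out 1 sample, all but that without AFX passage 14, at changes of -0.75 to -1.07, and also with a mean of at least 5 CPM (adjusted p 0.0535) and with the 2 groups alone (adjusted p 0.07). B2m, the light chain, gave 12.4 to 20.7 CPM in AF and 11.1 to 16.9 in AFX, and it did not pass.

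Most members that passed between FS and AF were lower in FS. Of 35 members, 3 were higher and 12 lower in FS, where 19.5% of all genes passed, 8.86% higher and 10.6% lower. The share of members higher was near that of all genes, and the share lower was above it. The median was -0.18 over the members and 0.02 over all genes. This comparison uses the same AF samples as that of AFX with AF, so the values stand side by side only. FS cells differ from AF and AFX cells in cell state, line and medium at once, and these cannot be told apart in this design. The 12 lower in FS were Irf1, Ifnar1, Trim25, Ifitm1, the 4 GBPs, H2-K1, Tapbp, Psmb8 and Psmb10. The 3 higher were H2-D1, Tap1 and Psmb9. Of 69 pathway genes, 5 were higher and 12 lower, among them Irf8 (1.79 ± 0.49, adjusted p 0.0184) higher, and Gbp4 (-4.59 ± 0.63, adjusted p 0.000168) and H2-Ab1 (-3.16 ± 0.47, adjusted p 0.000295) lower. Fibroblast markers were lower in FS for 7 of 8 tested, visceral endoderm markers for 4 of 4 and extraembryonic ectoderm markers for 4 of 5, and their part in the result was not tested.

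Among the FS differences from AF, Psmb9 and Tap1, which share a promoter region head to head on chromosome 17 and whose exons overlap by 212 bases on opposite strands, were higher. Psmb9 ran from 2.0 to 3.54 CPM in FS with a median of 2.49, above the 0.123 to 0.703 of AF (2.75 ± 0.57, adjusted p 0.00323, and 3.60 without AF passage 15). Tap1, a subunit of the peptide transporter, ran from 13.2 to 24.6 CPM with a median of 18.7 against 5.18, 11.8 and 7.70 in AF (1.16 ± 0.25, adjusted p 0.00506). Neither gene overlapped between the groups, and strand use in counting is not stated, so reads in their shared exons cannot be assigned. The same holds for other members, whose exons overlap annotated neighbours by 1053 of 3628 bases for Tapbp (Zbtb22 and Gm19412), 698 of 3781 for Tap2 (Gm15821 and Gm20496), 498 of 3381 for Psmb8 (Gm20496), 637 of 5614 for Gbp7 (Gm43802), 381 of 5207 for Tlr3 (Gm45542) and 315 of 3329 for Ifnar2 (Gm21970). Psmb8 (0.794 to 2.01 CPM in FS, median 1.43) and Psmb10 (2.62 to 4.53 CPM, median 3.66) moved the other way, lower than in AF by -2.68 ± 0.44 (adjusted p 0.000627) and -2.02 ± 0.33 (adjusted p 0.000647). Without AF passage 16 these changes were -1.78 and -1.43. Tapbp was also lower in FS (11.7 to 18.3 CPM, median 14.9, change -1.25 ± 0.16, adjusted p 0.000103).

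The heavy chains split. H2-K1 ran from 11.2 to 35.4 CPM in FS with a median of 24.4, below every AF sample (-1.58 ± 0.38, adjusted p 0.0125), while H2-D1 ran from 25.8 to 47.2 CPM with a median of 35.6, above every AF sample (0.84 ± 0.24, adjusted p 0.0228). The H2-K1 call was lost without AF passage 15 (-1.35) and the change was -2.38 for line 2 alone. The H2-D1 call was lost without AF passage 14 (0.71) or 16 (0.81) and for line 1 alone (0.45). These genes share 9.63% and 12.8% of their 50-base stretches with other genes, class I copies foremost, so a division of reads between them was not tested. Ifnar1, a chain of the type I receptor, was at 22.8 to 31.6 CPM in FS (median 26.9) and 36.3, 37.4 and 39.5 CPM in AF, with no overlap. Its change was -0.48 ± 0.13 (adjusted p 0.0185), lost without AF passage 16 (-0.45) and for FS line 2 alone (-0.43). Gbp3 and Gbp7 were lower in FS than in AF by -2.99 ± 0.68 (adjusted p 0.0067) and -4.84 ± 0.80 (adjusted p 0.000671). For line 2 alone those changes were -2.18 and -4.05. For line 1 alone the Gbp3 change was -5.54, and Gbp7, with no count there, was at least 10.1-fold lower. Without line 2 passage 12 FS held 3 Gbp7 counts, a pooled rate 56.1-fold lower (95% exact interval 18.6 to 277). Ifitm1, whose groups overlapped at 0.0569 to 4.86 CPM in FS and 3.34 to 13.5 CPM in AF, passed at -2.62 ± 0.83 (adjusted p 0.043). That call was lost without FS line 1 passage 11 or 18, line 2 passage 12 or 13 or AF passage 14 or 16, at changes of -1.94 to -2.74, and the change was -3.81 without FS line 1 passage 10. It was also lost for FS line 1 alone (-1.79, adjusted p 0.135), with DESeq2 (adjusted p 0.0522), without a filter (0.121) and with the 2 groups alone (0.0793), while line 2 alone gave -4.47.

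Against AFX, 7 members were higher and 1 lower in FS of 35 tested, where 8.70% of all genes passed, 3.78% higher and 4.92% lower. The median was 0.48 over the members and 0.00 over all genes. Of the other-cell markers, 2 of 4 visceral endoderm, 2 of 8 fibroblast and 1 of 5 extraembryonic ectoderm markers tested were lower in FS and 0 higher. Higher were Irf3, Ifngr1, Isg15, H2-D1, Tapbp, Psmb8 and Psmb9, and lower was Gbp2b (pooled rate 40.3-fold lower, 95% exact interval 6.44 to 1669). The Gbp2b call was lost for FS line 1 alone (adjusted p 0.0904), and the single FS count lay in line 1 passage 10. H2-D1 gave the smallest adjusted p of the 8, with 14, 9.62 and 7.40 CPM in AFX below the whole FS range (1.78 ± 0.25, adjusted p 0.000476). Ifngr1, the ligand-binding chain of the interferon gamma receptor, was at 11.2 to 13.9 CPM in FS (median 13.1) and at 5.70, 6.62 and 8.14 CPM in AFX (0.90 ± 0.17, adjusted p 0.0041). Irf3, the factor that switches on interferon genes, was at 17.4 to 19.1 CPM in FS (median 18.7) and 12.9, 9.50 and 12.8 CPM in AFX (0.64 ± 0.14, adjusted p 0.00847, lost without AFX passage 15 at 0.52). Neither gene overlapped between the groups. Tapbp was 0.82 ± 0.18 higher (adjusted p 0.00961, lost without AFX passage 15 at 0.76).

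Psmb8 and Psmb9 passed at 2.25 ± 0.63 (adjusted p 0.0376) and 2.09 ± 0.52 (adjusted p 0.0206). The Psmb8 call was lost in 7 of 9 fits that left out 1 sample, all but those without FS line 1 passage 10 or line 2 passage 12, at changes of 2.14 to 2.41. That of Psmb9 was lost without AFX passage 15 (1.89) or 16 (1.71), and the change was 3.08 without AFX passage 14. Both calls were also lost for FS line 1 alone (adjusted p 0.0992 for Psmb8 and 0.0682 for Psmb9) and for line 2 alone (0.0788 and 0.0564). The count of 8 fell to 4 without AFX passage 15 and came to 15 with FS line 2 alone. Of 69 pathway genes, 8 were higher in FS and 2 lower, where the shares of all genes were 3.78% and 4.92%. They included Parp14 (1.88 ± 0.53, adjusted p 0.0383) higher, and Ly6e (-0.72 ± 0.13, adjusted p 0.00265) and Ptpn6 (-0.64 ± 0.18, adjusted p 0.0401) lower.

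The 2 FS lines, grown in the same medium, differed from each other mostly in sensors and effectors. Of 35 members, 9 were higher in line 2 and 1 lower, where 3.85% of all genes passed, 2.65% higher and 1.20% lower. The median was 0.23 over the members and -0.02 over all genes. Higher were Irf9, the sensors Ifih1, Ddx58 and Trim25, and the effectors Ifit1, Ifitm3, Usp18, Bst2 and Gbp3. Lower was H2-K1. Of 69 pathway genes, 9 were higher and 1 lower. They included Parp12 (pooled rate 128-fold higher, 95% exact interval 35.0 to 1058) and Trim30a (39.4-fold, 10.6 to 329.8), with H2-T22 lower (-3.38 ± 0.54, adjusted p 0.00192). With 1 culture history per line, the test compares these 2 lines and not kinds of line.

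Usp18 was at 16.7, 16.6 and 16.8 CPM in line 2 and at 0.595, 0.472 and 0.407 CPM in line 1. The 3 passages of each line were close together and the lines far apart (5.05 ± 0.82, adjusted p 0.00373). Bst2 was at 56.6, 58.1 and 53.0 CPM in line 2 and at 13, 8.97 and 5.13 CPM in line 1 (2.62 ± 0.29, adjusted p 8.74e-05). The line 1 passages lay below every AF sample (20.6 to 26.5 CPM) and the line 2 passages above every other sample of the 21, for which the highest was 48.7 CPM at E5.0. Ddx58, the gene of RIG-I, was at 14.9, 20.9 and 19.7 CPM in line 2 and at 4.66, 6.73 and 1.79 CPM in line 1 (2.07 ± 0.36, adjusted p 0.00426). These 3 calls held in each fit that left out 1 sample.

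Irf9, the DNA-binding partner of STAT2, was at 17.0, 21.2 and 16.8 CPM in line 2 and at 8.14, 5.43 and 7.90 CPM in line 1 (1.33 ± 0.27, adjusted p 0.0108). Stat2 itself was at 28.0, 24.8 and 23 CPM against 18.4, 24.7 and 19.1 CPM and did not pass. Ifih1 had no count in line 1 and 0.482, 1.58 and 1.14 CPM in line 2, at least 3.57-fold higher (adjusted p 0.0274). Ifit1, which binds viral RNA, was at 1.12, 1.58 and 1.02 CPM in line 2. Line 1 passage 10 had 0.0992 CPM (1 count) and the other line 1 passages none, a ratio of pooled rates of 36.7 (95% exact interval 6.27 to 1479). Both are low-count genes, present in line 2 and all but absent in line 1. Trim25 was at 1.69, 3.06 and 2.16 CPM against 0.397, 0.118 and 0.0814 (3.45 ± 0.69, adjusted p 0.0117), Ifitm3 at 5.87, 4.53 and 4.66 against 1.49, 2.24 and 0.570 (1.82 ± 0.46, adjusted p 0.0419), and Gbp3 at 1.04, 1.69 and 1.59 against 0, 0.118 and 0.244 (3.36 ± 0.72, adjusted p 0.0163).

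Leaving out 1 passage ended several of these calls. Irf9 was lost without line 1 passage 11 (1.19) or line 2 passage 13 (1.22), and Trim25 without line 1 passage 11 (3.27) or 18 (3.01). Gbp3 was lost without line 1 passage 10 (2.83) or 11 or line 2 passage 16 (3.27), and Ifit1 without line 1 passage 11 or 18 or line 2 passage 13 (ratios of pooled rates of 26.6, 22.1 and 32.9). Ifih1 and Ifitm3 were each lost in 5 of 6 such fits, kept only without line 2 passage 12 for Ifih1 and without line 1 passage 11 for Ifitm3, with Ifitm3 changes of 1.41 to 1.89. Without line 1 passage 10, 2 Trim25 counts were left in line 1, a ratio of pooled rates of 23.1 (95% exact interval 6.21 to 194). Without line 1 passage 18, 1 Gbp3 count was left there, a ratio of 26.8 (95% exact interval 4.61 to 1075). The count of 10 fell to 5 without line 1 passage 11 or line 2 passage 13.

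H2-K1 went the other way. It was at 35.4, 32.7 and 32.9 CPM in line 1 and at 16.1, 11.2 and 13.6 CPM in line 2 (-1.32 ± 0.26, adjusted p 0.00958, lost without line 2 passage 13 at -1.20). H2-D1 was at 29.4, 26.8 and 25.8 CPM in line 1 and at 47.2, 43.9 and 41.9 CPM in line 2, apart in the opposite sense, and did not pass. B2m, Tap1, Tap2, Tapbp and the 3 immunoproteasome genes overlapped between the lines. The 4 visceral endoderm markers tested did not pass between the lines, and 1 of 8 fibroblast markers did.

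**Figure D3:**
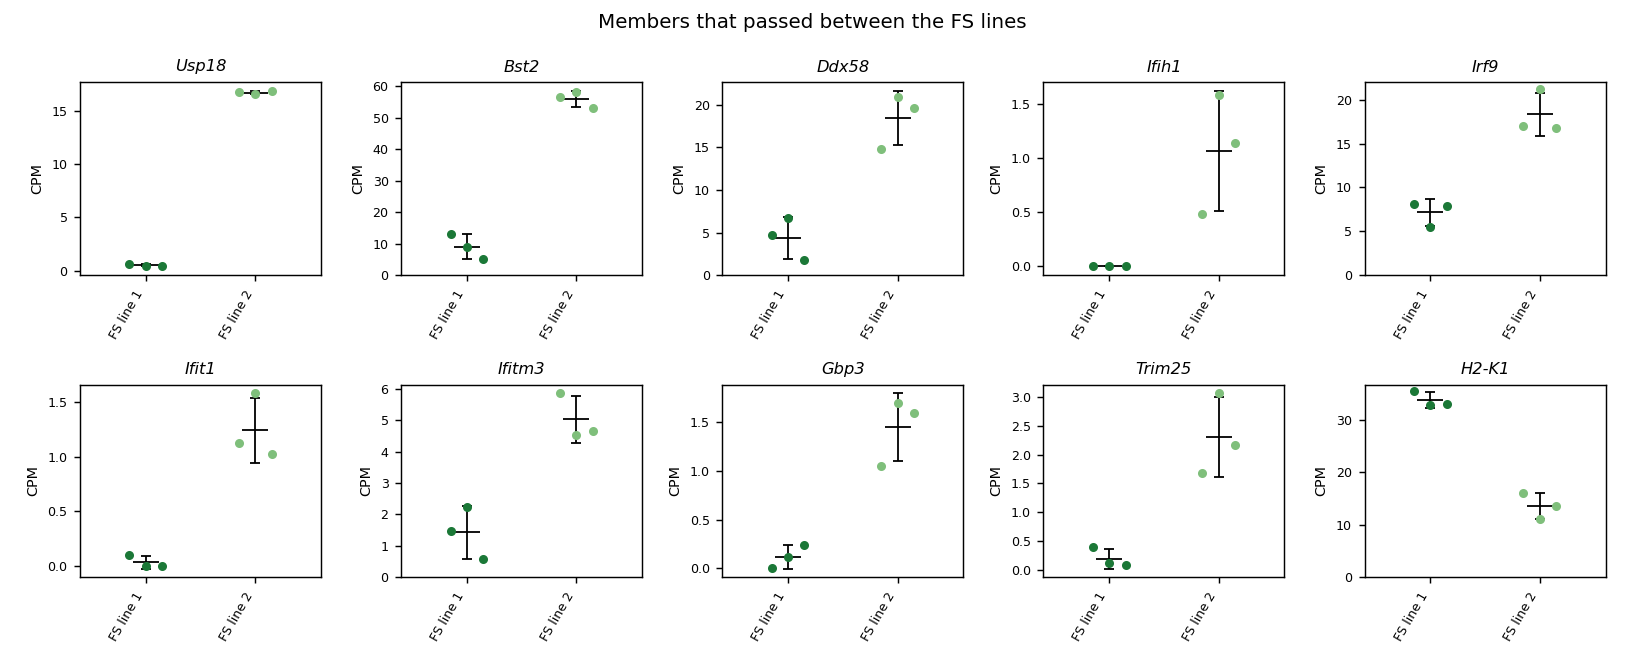
CPM of the 10 members that passed between FS line 1 and FS line 2 (3 passages each). Points are passages, horizontal lines and bars are mean ± SD. Line 2 is higher in all but H2-K1, and for Usp18 its 3 passages sit between 16.6 and 16.8 CPM.

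In the embryo most tested members were lower at E6.0 than at E5.0. Of 30 members tested, 18 were lower and 1 higher, where 21.8% of all 14228 genes passed, 10.2% higher and 11.6% lower. The median was -1.91 over the members and -0.02 over all genes. By role, 1 of 4 transcription factors, 0 of 3 receptor genes, 4 of 5 sensors, 7 of 9 effectors and 6 of 9 antigen presentation genes were lower. Of 64 pathway genes, 27 were lower and 0 higher, among them Ddx60 (17.1 to 0.122 CPM in the means, -6.84 ± 1.30, adjusted p 0.00543) and Lgals3bp (11 to 0.215 CPM, -5.49 ± 1.12, adjusted p 0.00513). Visceral endoderm markers moved the same way, with 6 of 8 tested lower at E6.0. The 8 leukocyte markers summed to 11.5 to 21.4 CPM at E5.0 and 7.62 to 11.6 at E6.0, and Ptprc did not exceed a mean of 0.18 CPM at any stage. Of the 3 leukocyte markers tested, Laptm5 (8.87 to 0.383 CPM in the means, -4.58 ± 0.71, adjusted p 0.000461) and Cd68 (6.68 to 1.20 CPM, -2.47 ± 0.63, adjusted p 0.0129) were lower at E6.0, and Coro1a was higher (2.33 ± 0.68, adjusted p 0.0256). The part of these cells in the result was not tested.

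Irf1 was at 132, 107 and 87.5 CPM at E5.0, at 33.7, 47.8 and 75.8 CPM at E5.5 and at 23.2, 32.3 and 25.7 CPM at E6.0. Each stage lay below the one before it without overlap, and E6.0 was lower than E5.0 by -2.02 ± 0.27 (adjusted p 0.000252). Trim25 was at 182, 175 and 184 CPM, then 130, 112 and 123, then 71.6, 87.5 and 109 CPM (-1.03 ± 0.14, adjusted p 0.00014). Its E6.0 samples were still above every cultured sample. Ddx58 was at 22.5, 14.5 and 26.7 CPM at E5.0 and 4.07, 2.77 and 1.92 CPM at E6.0 (-2.89 ± 0.36, adjusted p 7.66e-05).

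Zbp1, a sensor of Z-form nucleic acid, was at 48.0, 18.6 and 26.0 CPM at E5.0, at 1.58, 2.29 and 11.8 at E5.5 and at 0.263, 0 and 0.745 CPM at E6.0. The change from E5.0 to E6.0 was -6.55 ± 1.12 (adjusted p 0.00426), and it was -5.85 without E6.0 embryo 2. Without embryo 3, 2 counts were left at E6.0, a pooled rate 312-fold lower (95% exact interval 86.0 to 2579). Phf11d was at 12.4, 15.3 and 30.2 CPM at E5.0 and at 1.36, 2.98 and 0.466 CPM at E5.5. At E6.0 embryo 1 had 0.131 CPM and the others no count, so the pooled rate was 571-fold lower than at E5.0 (95% exact interval 102 to 22622). It was 340-fold lower without E6.0 embryo 2 (60.7 to 13471) and at least 66.7-fold lower without E6.0 embryo 1. Both genes stood in every E5.0 embryo and were at or near the floor in cultured cells, where Zbp1 did not exceed 1.02 and Phf11d 0.464 CPM.

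Gbp2 was at 20.6, 7.06 and 19.4 CPM at E5.0 and at 0, 0.433 and 0.213 CPM at E6.0 (-5.99 ± 0.84, adjusted p 0.000316). Without E6.0 embryo 2, 2 Gbp2 counts were left at E6.0, a pooled rate 144-fold lower (95% exact interval 39.6 to 1194). Gbp3 was at 6.08, 5.10 and 3.96 CPM and then 0, 0.0866 and 0.532 (-4.51 ± 0.96, adjusted p 0.00425). Without E6.0 embryo 3, 1 Gbp3 count was left at E6.0, a pooled rate 96.3-fold lower (95% exact interval 16.9 to 3840). Both were clear of overlap. Ifitm3 was at 23.5, 13.9 and 27.8 CPM at E5.0 and 4.20, 3.38 and 4.37 CPM at E6.0 (-2.47 ± 0.32, adjusted p 9.92e-05), and Bst2 was at 48.7, 39.6 and 44.2 against 10.5, 18.1 and 19.8 CPM (-1.47 ± 0.23, adjusted p 0.000537). Tlr3, Ifitm2 and Gbp7 also passed, at -2.54 ± 0.81, -0.87 ± 0.27 and -2.20 ± 0.73. Tlr3 was lost in 5 of 6 fits without 1 embryo, all but that without E5.0 embryo 1, at -2.40 to -2.74. Ifitm2 was lost without E5.0 embryo 1 (-0.71) or E6.0 embryo 2 (-0.72) or 3 (-0.80). Gbp7 was lost in 5 of 6, all but that without E5.0 embryo 1, at -1.79 to -2.42, and without a filter (adjusted p 0.117).

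Ifit2 was the member that rose. It was at 6.95, 1.37 and 3.84 CPM at E5.0, at 11.2, 8.60 and 9.14 at E5.5 and at 16.2, 15.8 and 16.7 CPM at E6.0. The stages did not overlap, and E6.0 exceeded E5.0 by 1.95 ± 0.41 (adjusted p 0.00427), or 2.57 without E5.0 embryo 1. Its neighbours of the same family did not follow, Ifit1 being at or below 0.993 CPM and Ifit3 at or below 0.260 CPM in every epiblast. Ifit2 in FS ran from 3.21 to 8.14 CPM with a median of 5.12.

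Of the antigen presentation genes, Tapbp was at 97.5, 82.4 and 113 CPM at E5.0, at 33.2, 23.5 and 61.9 at E5.5 and at 5.78, 16.3 and 12.9 CPM at E6.0 (-3.07 ± 0.44 from E5.0 to E6.0, adjusted p 0.00139). Psmb10 was at 95.5, 65.7 and 80.9, then 26.3, 33.6 and 47.9, then 8.14, 15.9 and 13.1 CPM (-2.71 ± 0.27, adjusted p 1.65e-05). For both, the stages were fully separated and in the order of age. The peptide transporter genes followed, Tap1 from 9.81, 10.01 and 15.6 to 1.05, 0.866 and 2.45 CPM (-3.03 ± 0.45, adjusted p 0.000312, and -3.62 without E6.0 embryo 3) and Tap2 from 21, 4.12 and 18.5 to 0.919, 2.25 and 2.88 CPM (-2.85 ± 0.54, adjusted p 0.00213).

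Psmb9 fell from 8.32, 4.32 and 2.16 to 0.131, 0.692 and 0.745 CPM (-3.18 ± 0.70, adjusted p 0.00533, and -2.54 without E5.0 embryo 1), and H2-D1 fell from 17.5, 14.5 and 27.6 to 5.38, 9.09 and 2.88 CPM (-1.79 ± 0.40, adjusted p 0.00573). Neither overlapped between E5.0 and E6.0. Psmb8, at 65.1, 18.8 and 32.9 CPM against 0.657, 6.75 and 7.77, did not pass, nor did H2-K1 or B2m. Those latter genes were low at all stages, H2-K1 at 1.37 to 10.7 CPM and B2m at 0.392 to 3.48 CPM. The constitutive subunits Psmb5, Psmb6 and Psmb7 did not pass, with E5.0 means of 30.5, 135 and 81.8 CPM and E6.0 means of 32.5, 130 and 84.6 CPM.

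The single steps gave fewer calls. From E5.0 to E5.5, 5 of 30 members were lower and 0 higher, where 6.82% of all genes passed (3.07% higher, 3.75% lower), and the median was -0.55 against -0.01 over all genes. They were Irf1 (-1.07 ± 0.26), Ddx58 (-1.59 ± 0.33), Trim25 (-0.58 ± 0.14), Phf11d (-3.62 ± 0.60, and -4.42 without E5.5 embryo 2) and Psmb10 (-1.18 ± 0.25), with adjusted p of 0.0038 to 0.0297. The count was 1 without E5.5 embryo 1 or 2, that is for Phf11d alone among these 5. Irf1 was also lost without E5.0 embryo 1 (-0.89) or 2 (-1.07) and with the 2 groups alone (adjusted p 0.0713), and Trim25 without E5.0 embryo 4 (-0.56) or E5.5 embryo 3 (-0.57). Without E5.5 embryo 1 or 2 the changes were -0.83 and -1.0 for Irf1, -1.55 and -1.51 for Ddx58, -0.63 and -0.52 for Trim25 and -1.0 and -1.13 for Psmb10. Of 64 pathway genes, 5 were lower and 0 higher, led by Ikbke (pooled rate 31.2-fold lower, 95% exact interval 10.2 to 155) and Gbp4 (-2.63 ± 0.48, adjusted p 0.00681).

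From E5.5 to E6.0, 7 of 30 were lower and 0 higher, where 4.43% of all genes passed (1.89% higher, 2.54% lower), and the median was -1.09 against -0.02. They were Ifitm3 (-1.45 ± 0.31), Bst2 (-0.97 ± 0.23), Phf11d (pooled rate 43.4-fold lower, 95% exact interval 7.38 to 1753), Gbp2 (-3.87 ± 0.84), Tap1 (-2.22 ± 0.44), Tap2 (-2.25 ± 0.53) and Psmb10 (-1.53 ± 0.26), with adjusted p of 0.00473 to 0.03. Psmb10 alone of the 7 held in each fit without 1 embryo. The count fell to 2 without E6.0 embryo 1 or 2, to 3 without E5.5 embryo 3. Tap2 was lost in all 6 such fits (-1.92 to -2.57), Ifitm3 in 5 (-1.31 to -1.52, kept without E5.5 embryo 1), and Tap1 without E6.0 embryo 1 (-2.04) or 2 (-1.92), its change being -2.82 without embryo 3. Bst2 was lost without E5.5 embryo 1 (-0.97) or 3 (-0.83) or E6.0 embryo 1 (-0.74) or 2 (-1.05), Gbp2 without E5.5 embryo 3 (-2.81) or any of the E6.0 embryos, and Phf11d without E5.5 embryo 2 or E6.0 embryo 2 or 3 (pooled rates 24.8-fold, 25.8-fold and 29.1-fold lower). Without E6.0 embryo 2, 2 Gbp2 counts were left at E6.0, a pooled rate 33.1-fold lower (95% exact interval 8.94 to 276). Without E6.0 embryo 1 Phf11d had no count there and was at least 5.53-fold lower. Of 64 pathway genes, 4 were lower, among them Ifi35 (-3.16 ± 0.63, adjusted p 0.0109) and Gbp4 (-2.30 ± 0.57, adjusted p 0.0353). Visceral endoderm markers were lower for 6 of 8 tested from E5.0 to E5.5 and for 1 of 8 from E5.5 to E6.0, and their part in these counts was not tested. The 3 stage comparisons share embryos.

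**Figure D4:**
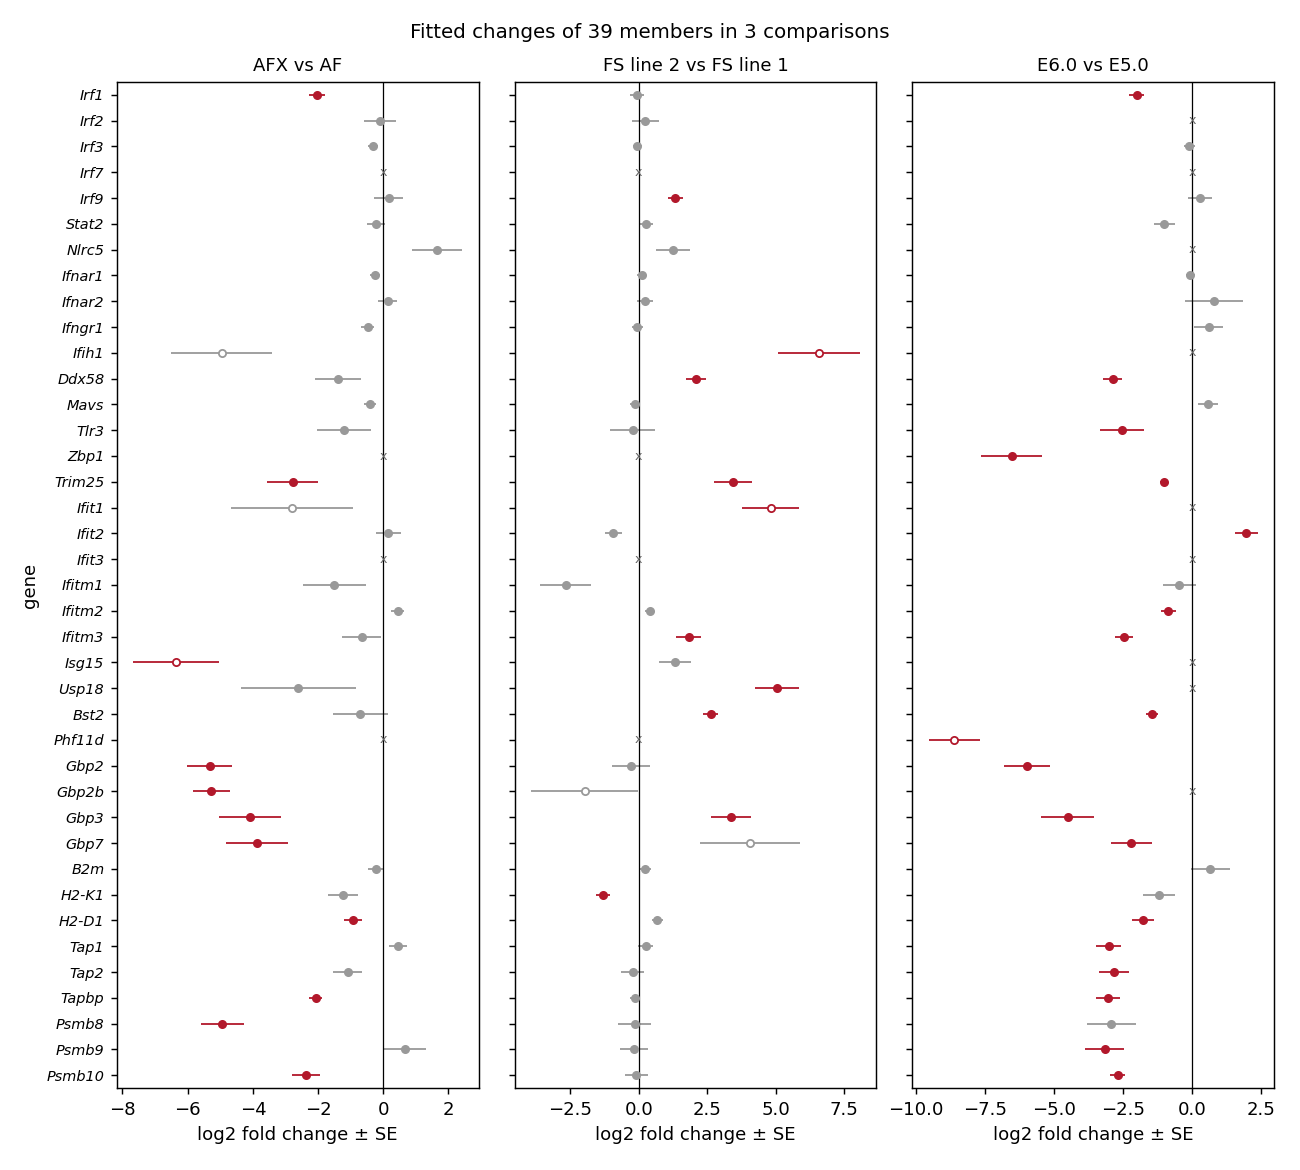
Fitted log2 fold change ± SE of each of the 39 members for AFX against AF, FS line 2 against FS line 1 and E6.0 against E5.0. Red marks an adjusted p under 0.05, grey marks no pass and a cross at 0 a gene that was not tested, and open points had a group with 3 or fewer counts in all, where the fitted value depends on the prior count. All 11 red points of AFX against AF lie left of 0, and of the 19 of E6.0 against E5.0 only Ifit2 lies right of it.

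Between cultured cells and epiblasts members differed in both directions. Of 37 tested over all 21 samples, 12 were higher and 13 lower in culture, where 61.8% of all 16614 genes passed (33.9% higher, 27.9% lower), so the share called (25 of 37) was near that of all genes. The median was 0.01 over the members and 0.09 over all genes. By role, 2 receptor genes were higher and 0 lower, transcription factors were 3 and 2, sensors 1 and 2, effectors 2 and 4, and antigen presentation genes 4 and 5. The effectors higher were Usp18 and Gbp2b. Gbp2b was high in AF only, and its call was lost with FS line 2 alone or without FS line 1 passage 10. Irf9 was higher by 0.58, a call lost in 15 of 28 alternatives. Of the visceral endoderm markers 6 were lower and 1 higher of 9 tested, while 1 fibroblast marker was lower and 5 higher of 8. Leukocyte markers were lower for 2 of 3, and epiblast markers were lower for 5 and higher for 1 of 7. The part of such cells in the result was not tested. Ifngr1 was at 5.70 to 13.9 CPM in the 12 cultured samples and at 1.47 to 4.67 CPM in the 9 epiblasts (2.01 ± 0.15, adjusted p 2.43e-10). Ifnar2, the other type I receptor chain, was at 3.07 to 5.80 against 0 to 2.05 CPM (2.06 ± 0.35, adjusted p 2.66e-05, and 2.77 without E5.0 embryo 4), and Stat2 was at 13.9 to 32.1 against 4.33 to 13.5 CPM (1.66 ± 0.18, adjusted p 4.03e-08). Cultured and epiblast samples did not overlap for these 3 genes. Ifnar1 was at 22.8 to 39.5 against 23.7 to 32.6 CPM and did not pass. Mavs, the mitochondrial adaptor of the RNA sensors, was higher by 0.91 ± 0.14 (adjusted p 5.31e-06). Irf2, a repressor of interferon-responsive genes, was at 2.11 to 7.56 CPM in cultured samples and 0 to 2.75 CPM in epiblasts and was higher by 2.27 ± 0.40 (adjusted p 3.82e-05). Irf3 was lower in culture by -0.57 ± 0.09 (adjusted p 1.55e-05).

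Of the 9 antigen presentation genes, the class I chains and Tap1 were higher in culture and the other 5 lower. In this comparison 61.8% of all genes passed, 33.9% higher and 27.9% lower. B2m was at 9.18 to 20.7 CPM in cultured samples and at 0.392 to 3.48 CPM in epiblasts (2.55 ± 0.24, adjusted p 5.9e-09), and H2-K1 was at 11.2 to 90.2 against 1.37 to 10.7 CPM (3.11 ± 0.31, adjusted p 1.36e-07). Neither overlapped. H2-D1 (0.66 ± 0.19, adjusted p 0.00553) and Tap1 (1.30 ± 0.19, adjusted p 4.46e-06) were higher with overlapping ranges. Psmb10 (-2.64 ± 0.20, adjusted p 5.38e-10), Psmb8 (-3.61 ± 0.45, adjusted p 1.93e-06), Psmb9 (-1.25 ± 0.36), Tap2 (-1.08 ± 0.27) and Tapbp (-1.10 ± 0.17) were lower, all with overlapping ranges. Trim25 was lower by -4.41 ± 0.30 (adjusted p 2.66e-09) without overlap, and by -5.30 where FS line 1 stood for FS, and Irf1 by -2.20 ± 0.15 (adjusted p 2.39e-11) with overlap.

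**Figure D5:**
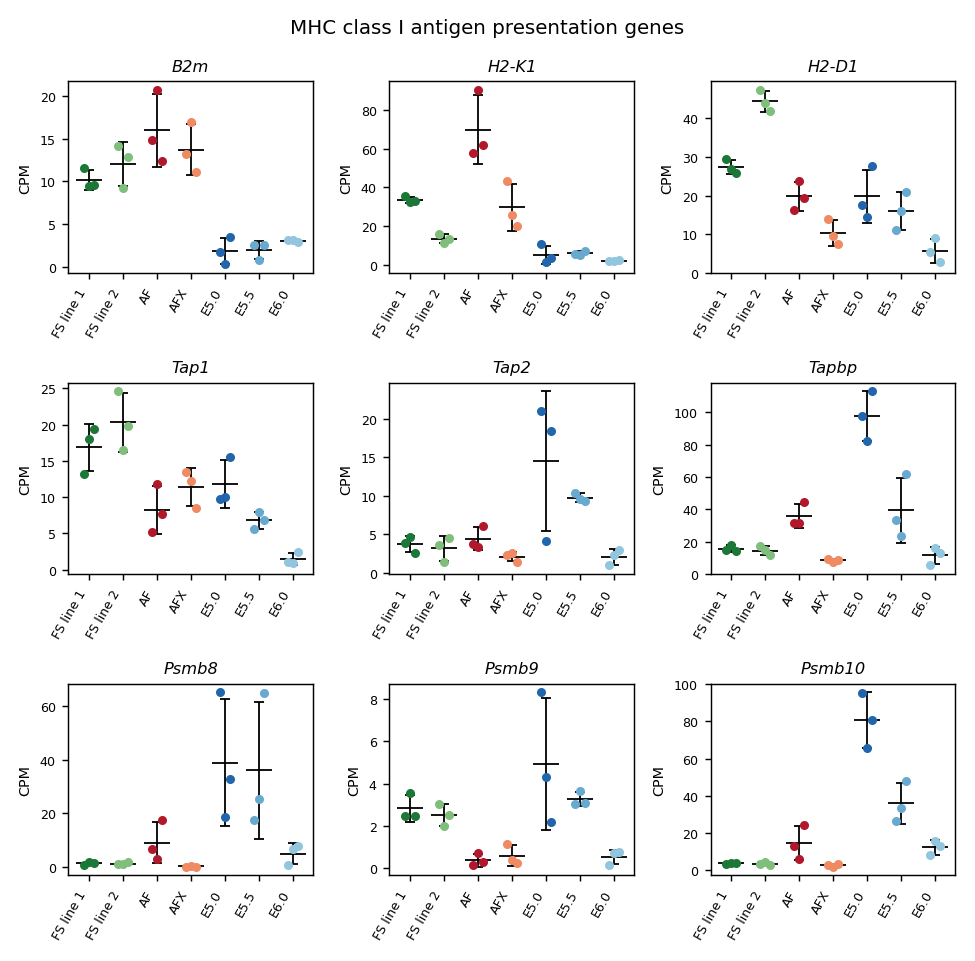
CPM of the 9 antigen presentation members by group. Points are samples (3 per group or line), horizontal lines and bars are mean ± SD. B2m is at 9.18 CPM or more in all cultured samples and at 3.48 CPM or less in all epiblasts, while Tapbp and Psmb10 are highest at E5.0.

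Usp18 had 0.240 CPM or less in every epiblast, and its pooled rate was 154-fold higher in culture (95% exact interval 52.4 to 746), with the highest values in FS line 2 and AF passage 15. Without E5.0 embryo 4, 1 epiblast count was left and the ratio was 412 (95% exact interval 73.7 to 16280). Of 74 pathway genes, 14 were higher and 25 lower in culture, a smaller share than the 61.8% of all genes that passed. They included H2-Ab1 (3.57 ± 0.64, adjusted p 5.04e-05) higher, and Ddx60 (-4.51 ± 0.91, adjusted p 0.000251) and Oasl1 (-3.53 ± 0.73, adjusted p 0.000247) lower. The constitutive proteasome genes Psmb5, Psmb6 and Psmb7 were also lower, by -0.42, -0.34 and -0.35.

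FS cells alone were also set against E5.5 epiblasts. Of 37 members, 10 were higher and 13 lower in FS, where 43.8% of all genes passed (3828 higher and 3448 lower), and the median was -0.07 against 0.08 over all genes. Visceral endoderm markers were lower in FS for 6 of 9 tested, fibroblast markers lower for 1 and higher for 2 of 8, and epiblast markers lower for 5 and higher for 1 of 7, and their part in the result was not tested. Ifngr1 was higher by 3.0 ± 0.27 (adjusted p 1.1e-08), B2m by 2.48 ± 0.40 (adjusted p 2.95e-05), Stat2 by 1.73 ± 0.29 (adjusted p 4.51e-05) and H2-K1 by 1.94 ± 0.48 (adjusted p 0.00334, and 1.16 for line 2 alone). Trim25 was lower by -6.53 ± 0.48 (adjusted p 2.56e-08), or -9.19 for line 1 alone and -5.74 for line 2 alone. Psmb10 was lower by -3.31 ± 0.30 (adjusted p 2.48e-08) and Psmb8 by -4.64 ± 0.60 (adjusted p 9.67e-06, and -3.90 without E5.5 embryo 3). Irf1 was lower by -2.66 ± 0.21 (adjusted p 2.42e-09). Of 74 pathway genes, 13 were higher and 18 lower in FS, with Ddx60 lower (-5.07 ± 0.94, adjusted p 0.000215). Culture against embryo, amount of input and dissection cannot be told apart in this design.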

How the data were processed

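RNA of 12 cultured samples and 9 single epiblasts was measured by sequencing. The authors deposited unnormalised read counts for each gene, made on mm10 with tools that, per the submitters' processing notes, include Trim Galore, TopHat2 2.1.0 and featureCounts 1.5.0. Their settings, the annotation release, strand use and the treatment of reads with several hits are not given in the sources used here. The members and lists were chosen with earlier results of these data known.

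All 33861 genes entered each fit with edgeR 4.0.16 (TMM scaling, filterByExpr, robust quasi-likelihood F-test, two-sided, Benjamini-Hochberg adjustment over all genes tested, threshold 0.05). Fits used the 12 cultured samples, the same with FS divided by line, the 9 epiblasts or all 21 samples, with no covariate. SE was the log2 change divided by the square root of F. After low-count filtering 35 of the 39 members were tested in culture, 30 in epiblasts and 37 over all samples, and those that passed the filter only through their high group had to differ. Among them, in culture, were Gbp2b and Gbp7 through AF and Ifit1 through FS line 2. All members are named, and a change is given singly only where it passed. Of the fixed list of 100 pathway genes, 96 of which had an entry, up to 2 rising and 2 falling genes of largest change are named per comparison, plus the constitutive proteasome genes. Another gene of that list is not reported here. H2-T23, also fixed by name, had group means of 1.17 to 2.81 CPM and did not pass in any comparison. The extraembryonic ectoderm markers summed to 27.9 to 192 CPM over all samples.

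A group with no count was set at 3 counts per sample and its fold written as "at least". The plan foresaw this bound also where a group had a few counts, and there the ratio of pooled rates (counts over pooled library size) with its 95% exact Poisson interval is given instead. Within groups, 21 pairs of samples (FS by line) all differed by more than counting noise (4.84 to 29.0 chi-square units for each degree of freedom) and were kept as separate samples. Alternatives were DESeq2 1.42.0 (test and size factors), fitting without a filter, keeping genes whose mean reached 5 CPM, leaving out 5 loci that took 2% or more of a sample's counts (mt-Rnr1, mt-Rnr2, Gm23935, Gm26917 and Gm42418), the 2 groups alone, each FS line alone, a replicate block and leaving out each sample. The scripts were tested on simulated data. Gene positions and overlaps came from GENCODE M21 (GRCm38).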

Additional observations from a re-analysis of the deposited data

Results flagged for a closer look

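Over the 6 FS samples, 36 members with more than 3 counts were examined for a sample far from the others, and 3 had one. Chance flags about 1 in 20 groups. Nlrc5, the transcriptional coactivator of class I genes, was at 3.37 CPM in line 2 passage 12, where the next highest FS sample was at 1.42 CPM. Tlr3, the endosomal sensor of double-stranded RNA, was at 1.53 CPM in line 1 passage 11, the next being 0.844 CPM and the value resting on 13 counts. Ifitm1 was at 4.86 CPM in line 1 passage 10, the next being 1.53 CPM, and its change between FS and AF was -3.81 without that passage against -2.62 with it.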

How the results depend on the processing

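None of the 123 single-gene changes reversed sign under any alternative. All alternatives kept 76 of them past the threshold and 47 were lost in at least 1. Counts of members past the threshold moved by over 1.5 times as follows. Between FS and AFX the 8 became 5 with a mean of at least 5 CPM and 15 with FS line 2 alone. Between AFX and AF the 11 became 6 with a mean of at least 5 CPM. From E5.0 to E5.5 the 5 became 8 without a filter and 9 with DESeq2. From E5.5 to E6.0 the 7 became 13 without a filter, 15 with DESeq2 and 12 with the 2 groups alone. Apart from the CPM minimum, which tests fewer genes, and the settings with fewer samples, the cause was not tested.

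Leaving out 1 sample gave 7 to 10 members between AFX and AF, 12 to 15 between FS and AF, 4 to 9 between FS and AFX, 5 to 9 between the FS lines, 1 to 7 from E5.0 to E5.5, 2 to 6 from E5.5 to E6.0, 16 to 18 from E5.0 to E6.0, 19 to 23 between FS and E5.5 and 23 to 26 between culture and epiblast. Same-numbered samples did not deviate together (correlations of -0.14, -0.10 and 0.22 between AFX and AF), so the numbers were not taken as pairs. With the number as a replicate block the counts were 10 between AFX and AF, 3 from E5.0 to E5.5, 13 from E5.5 to E6.0 and 14 from E5.0 to E6.0. DESeq2 size factors moved the median of all genes by 0.02 at most on the log2 scale. Members near 3 counts, such as Irf7, Ifit1, Ifih1 and Isg15, could show only large differences at this depth.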
